A study of Homo sapiens with 15 samples.

Results

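The EGR and AP-1 immediate early factors are 10 genes, EGR1, EGR2, EGR3, FOS, FOSB, FOSL1, FOSL2, JUN, JUNB and JUND, which were selected by gene name from the 60675 genes of the deposited count table. Each name matched 1 gene. They were measured by RNA sequencing, after depletion of ribosomal RNA, in HT1080 cells, a human fibrosarcoma line that carries an activating NRAS mutation. Wild-type cells treated with 1 µM TMP195, an inhibitor of the class IIa lysine deacetylases, for 2 days gave 3 libraries. Untreated cells expressing KDAC7 (HDAC7) with the H709A change gave 4 libraries, untreated cells expressing KDAC4 (HDAC4) with the H803A change gave 3, and untreated cells expressing KDAC4 with the H976Y change gave 4. The series is on inactive or enhanced deacetylases expressed from their own genes. H709A and H803A alter an active-site histidine, and H976Y puts back the tyrosine that class I enzymes carry, which is known to raise deacetylase activity. Untreated wild-type cells were not used here, so each difference is between 2 of these 4 groups and none is against unmodified cells. The labels do not say whether a variant line was 1 clone or whether its libraries came from separate cultures, and p-values therefore speak only of variation among these libraries, part or all of which may be technical. The variants are point changes, so the level of HDAC4 or HDAC7 RNA does not check the labels. Cells were pelleted and frozen before RNA was extracted.

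EGR1, EGR2 and EGR3 are zinc finger transcription factors that bind a GC-rich DNA element. FOS, FOSB, FOSL1 (Fra-1) and FOSL2 (Fra-2) form AP-1 dimers with JUN, JUNB or JUND through leucine zippers, and JUN proteins also pair with each other. Growth factors, serum and stress switch on EGR1, FOS and JUN within minutes without new protein synthesis, through serum response factor, its ternary complex partners and the RAS to ERK cascade. FOSL1 follows later, is itself an AP-1 target, and is known to be high in tumour cells with active RAS signalling. Class IIa deacetylases act in large part as corepressors on DNA-bound factors such as MEF2, which also regulates JUN.

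Promoter sequences from RefSeq (GRCh38.p14), spanning 250 bases before to 50 bases after the start of the transcript, matched 8 of the 10 members. Those of EGR1, FOS, JUN and FOSL2 are shown because they cover the EGR, FOS and JUN families and include the tested members with the widest (EGR1) and the narrowest (FOSL2) range over libraries. Capitals mark the CArG box bound by serum response factor, the EGR element GCGNGGGCG, and the AP-1 and CREB elements TGANTCA, TGACGTCA and TGACATCA, searched on both strands.
EGR1, chr5:138465229-138465528, + strand: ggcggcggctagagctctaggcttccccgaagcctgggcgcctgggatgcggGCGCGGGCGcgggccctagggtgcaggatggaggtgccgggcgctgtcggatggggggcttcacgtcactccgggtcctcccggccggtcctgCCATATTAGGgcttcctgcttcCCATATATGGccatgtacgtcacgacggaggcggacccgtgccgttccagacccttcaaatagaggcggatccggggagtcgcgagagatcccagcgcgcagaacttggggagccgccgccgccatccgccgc
FOS, chr14:75278578-75278877, + strand: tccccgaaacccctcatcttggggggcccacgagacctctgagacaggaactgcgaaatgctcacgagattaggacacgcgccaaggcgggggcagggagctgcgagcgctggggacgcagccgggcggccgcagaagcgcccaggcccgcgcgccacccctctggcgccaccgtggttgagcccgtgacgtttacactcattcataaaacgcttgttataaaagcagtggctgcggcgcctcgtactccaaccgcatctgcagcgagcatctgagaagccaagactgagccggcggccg
JUN, chr1:58783998-58784297, - strand: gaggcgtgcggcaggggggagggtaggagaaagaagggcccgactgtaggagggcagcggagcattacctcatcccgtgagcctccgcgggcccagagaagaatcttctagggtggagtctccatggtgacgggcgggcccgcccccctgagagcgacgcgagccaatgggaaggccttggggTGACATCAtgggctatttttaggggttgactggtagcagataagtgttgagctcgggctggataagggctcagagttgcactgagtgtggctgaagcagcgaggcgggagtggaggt
FOSL2, chr2:28392608-28392907, + strand: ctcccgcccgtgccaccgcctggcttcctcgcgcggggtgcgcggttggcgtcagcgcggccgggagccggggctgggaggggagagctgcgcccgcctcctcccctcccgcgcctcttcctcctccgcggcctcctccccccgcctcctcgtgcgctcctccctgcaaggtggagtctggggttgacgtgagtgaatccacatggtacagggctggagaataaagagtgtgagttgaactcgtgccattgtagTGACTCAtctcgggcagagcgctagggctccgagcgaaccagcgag
The EGR1 window held CArG boxes at -105 and -83 and an EGR element at -198, counted from the first transcribed base. A CArG box was found in 1.29% and GCGNGGGCG in 9.43% of 35116 promoters of this length. The JUN window held TGACATCA at -67, found in 2.61% of promoters, and the FOSL2 window held TGANTCA at position 4, found in 7.71%. JUND, not printed, held TGACGTCA at -200, found in 1.85%. None of these motifs was in the FOS window, which held only the shorter TGACG, at -64, found in 24.6% of promoters. Elements more than 250 bases before the start lie outside the window and were not searched, in FOS or in any other member. A match is a string of letters and was not tied to binding of any factor.

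The 14 libraries held 6151383 to 24297487 counts, so that 1 CPM (counts per 1000000, on libraries scaled by the trimmed mean of M values) stood for 4.86 to 23.9 counts. Libraries of 1 group did not always resemble each other. On the log2 difference between GC-rich and GC-poor genes, KDAC7 H709A replicate 1 stood at 1.19 and KDAC4 H803A replicates 2 and 3 at 1.36 and 1.29, and every other library lay between -1.11 and 0.53. KDAC4 H803A replicate 1 was nearest to KDAC7 H709A replicate 4, and KDAC7 H709A replicate 1 to KDAC4 H803A replicate 3, so results for these groups are also given without replicates 1 and 4 of KDAC7 H709A and replicate 1 of KDAC4 H803A. Mitochondrial ribosomal RNA took 16.1% to 31.5% of counts in KDAC4 H976Y libraries and at most 0.345% elsewhere. In comparisons with KDAC4 H976Y, the group and that difference between libraries cannot be told apart. The 12 mesenchymal markers, led by VIM, summed to 5933 to 7543 CPM in TMP195, 4842 to 8651 in KDAC7 H709A, 3655 to 8675 in KDAC4 H803A and 5690 to 8576 in KDAC4 H976Y. The collagen COL1A2 was at 0 in KDAC7 H709A, and COL3A1 was at 0 in KDAC4 H803A and KDAC4 H976Y. The blood cell markers PTPRC and HBB were at 0 in all groups, while the summed blood list, nearly all LCP1, was 112 to 143 CPM in TMP195, 69.5 to 261 in KDAC7 H709A, 142 to 164 in KDAC4 H803A and 37.9 to 58.6 in KDAC4 H976Y. The 8 neural markers summed to 193 to 225 CPM in TMP195, 180 to 261 in KDAC7 H709A, 121 to 219 in KDAC4 H803A and 198 to 291 in KDAC4 H976Y, with STMN2 at 0 in all groups. Of the 6 tested, NEFL, a neurofilament subunit, averaged 2.4 ± 0.716 CPM in TMP195, 23.0 ± 13.3 in KDAC7 H709A, 29.6 ± 9.03 in KDAC4 H803A and 0.194 ± 0.0358 in KDAC4 H976Y, and was called higher in each of the first 3 than in KDAC4 H976Y (log2 differences 3.55 ± 0.59, 6.81 ± 0.56 and 7.17 ± 0.58, adjusted p = 0.00169, 1.47e-05 and 2.03e-05). TUBB3, a neuronal tubulin, was called lower than in KDAC4 H976Y in KDAC7 H709A (-0.90 ± 0.27, adjusted p = 0.0476) and KDAC4 H803A (-1.39 ± 0.30, adjusted p = 0.0102). The part of the blood and neural markers in the results was not tested. In bulk RNA, fewer expressing cells and less RNA per cell cannot be told apart.

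EGR1 set KDAC4 H976Y cells apart from the other 3 groups, with a group mean 12.3 to 31.1 times higher outside KDAC4 H976Y in the fitted model. EGR1 (ENSG00000120738) lies on the plus strand of chromosome 5 at 138465490 to 138469315 (GRCh38, GENCODE). It stood at 17.5, 11.2 and 19.7 CPM in TMP195 libraries, at 119, 22.4, 9.08 and 12.5 CPM in KDAC7 H709A, at 12.2, 22.3 and 55.4 CPM in KDAC4 H803A, and at 1.55, 1.60, 0.974 and 1.03 CPM in KDAC4 H976Y. Every library of the first 3 groups was above every KDAC4 H976Y library, and the first 3 groups overlapped each other. The KDAC4 H976Y values rested on 11, 15, 9 and 5 counts. EGR1 was higher than in KDAC4 H976Y cells by 3.62 ± 0.86 on the log2 scale in TMP195 cells (standard error; adjusted p = 0.0132 by edgeR's quasi-likelihood test with Benjamini-Hochberg adjustment over 17780 genes), by 4.96 ± 0.87 in KDAC7 H709A cells (adjusted p = 0.00259) and by 4.51 ± 0.88 in KDAC4 H803A cells (adjusted p = 0.00531). These 3 comparisons share the KDAC4 H976Y libraries and are not independent of each other. The variant cannot be told apart in them from the high mitochondrial ribosomal RNA of those libraries.

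KDAC7 H709A replicate 1 stood far above the rest of its group in EGR1, whose mean was 40.9 ± 52.7 CPM (SD, n = 4). Without it the log2 difference of KDAC7 H709A from KDAC4 H976Y was 3.47 ± 0.52 (adjusted p = 0.00123). Without KDAC4 H803A replicate 3, the difference of KDAC4 H803A from KDAC4 H976Y was 3.71 ± 0.85 (adjusted p = 0.0231). Among libraries with a GC measure below 1, EGR1 was at 11.2 to 19.7 CPM in TMP195, 9.08 to 22.4 in KDAC7 H709A, 12.2 in the single KDAC4 H803A library and 0.974 to 1.60 in KDAC4 H976Y. EGR1 passed the threshold against KDAC4 H976Y in 24 of 24 alternative analyses in each of the 3 comparisons, with adjusted p up to 0.0475 for TMP195, 0.0134 for KDAC7 H709A and 0.0257 for KDAC4 H803A. TMP195 differed from KDAC7 H709A by -1.34 ± 0.77 (adjusted p = 0.328) and from KDAC4 H803A by -0.89 ± 0.80 (adjusted p = 0.611), and KDAC7 H709A differed from KDAC4 H803A by 0.45 ± 0.75 (adjusted p = 0.765).

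EGR2 and EGR3 were at the edge of detection and did not pass the filter on low counts, so neither was tested. EGR2, best known for myelination and T cell tolerance, had 6, 9 and 7 counts in TMP195 libraries, 7, 2, 6 and 18 in KDAC7 H709A, 5, 0 and 0 in KDAC4 H803A and 1, 0, 1 and 2 in KDAC4 H976Y. Its group means were 0.466 CPM in TMP195, 0.495 in KDAC7 H709A, 0.106 in KDAC4 H803A and 0.165 in KDAC4 H976Y. EGR3 had 2 counts in KDAC7 H709A replicate 2 and none in the other 13 libraries, and a count of 0 allows up to 0.126 to 0.618 CPM by library (3 counts, counting error only). EGR3 overlaps a gene on the opposite strand, AC055854.1, and the counting strand was not given in the sources used here.

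**Figure D1:**
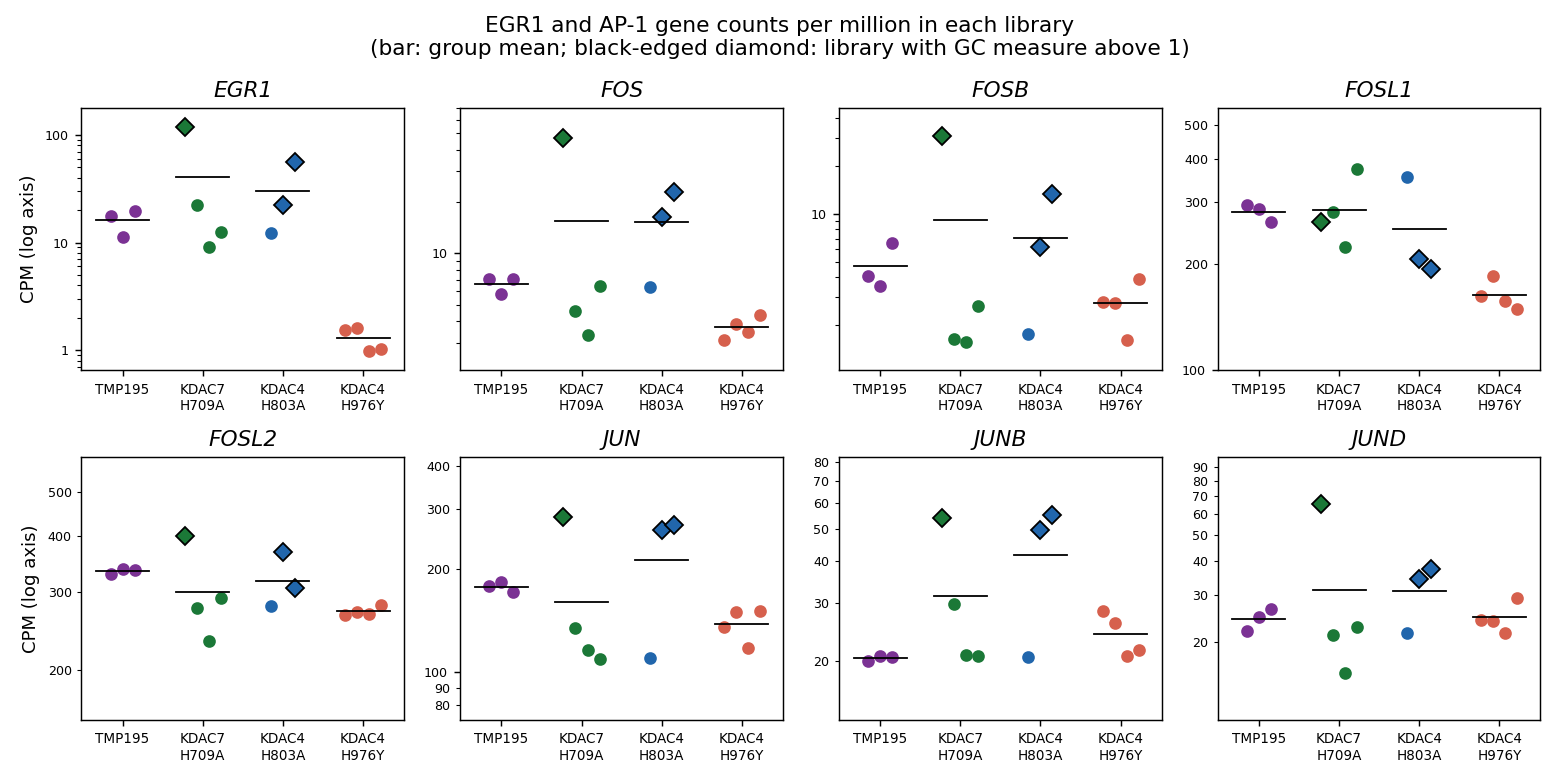
CPM (log axis, scaled separately for each gene) of the 8 tested members in each library, in the order TMP195, KDAC7 H709A, KDAC4 H803A and KDAC4 H976Y. Bars are group means and black-edged diamonds mark the 3 libraries with a GC measure above 1. All KDAC4 H976Y libraries lie at or below 1.60 CPM in EGR1, and KDAC7 H709A replicate 1 is the highest library for EGR1, FOS, FOSB, FOSL2, JUN and JUND.

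FOSL1, which encodes the AP-1 subunit Fra-1, was the most abundant member per length and was higher than in KDAC4 H976Y cells by 1.73 times in TMP195 cells and 1.75 times in KDAC7 H709A cells. FOSL1 (ENSG00000175592, minus strand of chromosome 11 at 65892049 to 65900573) was at 294, 288 and 264 CPM in TMP195 libraries, at 264, 282, 224 and 373 in KDAC7 H709A, at 354, 207 and 193 in KDAC4 H803A, and at 162, 185, 157 and 149 in KDAC4 H976Y. All 10 libraries of the first 3 groups exceeded the highest KDAC4 H976Y library, although KDAC4 H803A replicate 3 did so by only 193 against 185 CPM. The log2 difference from KDAC4 H976Y was 0.79 ± 0.23 in TMP195 (adjusted p = 0.0314) and 0.81 ± 0.21 in KDAC7 H709A (adjusted p = 0.0254). In KDAC4 H803A it was 0.62 ± 0.23 and missed the threshold (adjusted p = 0.0783).

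The FOSL1 calls were close to the threshold. The TMP195 call held in 13 of 24 alternatives, with adjusted p between 9.62e-05 and 0.570, and the KDAC7 H709A call in 14 of 24, with adjusted p between 0.00176 and 0.630. Leaving out any 1 KDAC4 H976Y library ended both calls (adjusted p 0.0681 to 0.102 for TMP195 and 0.0571 to 0.0854 for KDAC7 H709A). Leaving out any 1 TMP195 library ended the TMP195 call (0.0828 to 0.114), and leaving out KDAC7 H709A replicate 2 or 4 ended the KDAC7 H709A call (0.0512 and 0.0723). With GC and length offsets the differences were 0.51 ± 0.47 for TMP195 (adjusted p = 0.466) and 0.97 ± 0.44 for KDAC7 H709A (adjusted p = 0.151).

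FOS and FOSB, the classical fast-induced members, were low and uneven, and neither passed edgeR's test with all libraries in any comparison. FOS (ENSG00000170345, plus strand of chromosome 14 at 75278774 to 75282230) was at 7.05, 5.74 and 7.09 CPM in TMP195, at 47.2, 4.60, 3.32 and 6.41 in KDAC7 H709A, at 6.33, 16.3 and 22.8 in KDAC4 H803A and at 3.10, 3.83, 3.46 and 4.33 in KDAC4 H976Y. TMP195 and KDAC4 H803A libraries did not overlap KDAC4 H976Y, whereas KDAC7 H709A replicate 3 lay among the KDAC4 H976Y values. The log2 differences from KDAC4 H976Y were 0.85 ± 0.77 in TMP195 (adjusted p = 0.460), 2.06 ± 0.74 in KDAC7 H709A (adjusted p = 0.0882) and 2.04 ± 0.78 in KDAC4 H803A (adjusted p = 0.0890). The DESeq2 Wald test called FOS higher than in KDAC4 H976Y in KDAC7 H709A (2.10 ± 0.72, adjusted p = 0.0227) and in KDAC4 H803A (2.07 ± 0.78, adjusted p = 0.0350). Over the 24 alternatives FOS was called in 2 for TMP195, 2 for KDAC7 H709A and 5 for KDAC4 H803A against KDAC4 H976Y, with adjusted p between 0.00372 and 0.630, 0.0227 and 0.779, and 9.61e-07 and 0.280 in that order.

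FOSB (ENSG00000125740, plus strand of chromosome 19 at 45467995 to 45475179) was at 4.06, 3.54 and 6.62 CPM in TMP195, 31.1, 1.65, 1.56 and 2.64 in KDAC7 H709A, 1.77, 6.20 and 13.4 in KDAC4 H803A and 2.82, 2.77, 1.62 and 3.91 in KDAC4 H976Y. All groups overlapped, and the TMP195 libraries were above KDAC7 H709A replicates 2 to 4. FOSB overlaps ERCC1 on the opposite strand, which held 14218 counts over the 14 libraries against 944 for FOSB, so their reads cannot be told apart where they overlap. The fitted differences from KDAC4 H976Y were 0.79 ± 0.97 in TMP195 (adjusted p = 0.596), 1.73 ± 0.92 in KDAC7 H709A (adjusted p = 0.251) and 1.36 ± 0.97 in KDAC4 H803A (adjusted p = 0.329).

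FOSL2, the other abundant FOS family member, varied least of the tested members, with a range over libraries of 0.78 on the log2 CPM scale. FOSL2 (ENSG00000075426, plus strand of chromosome 2 at 28392448 to 28417312) was at 328, 337 and 336 CPM in TMP195, at 399.7, 275, 233 and 291 in KDAC7 H709A, at 279, 367 and 305 in KDAC4 H803A and at 265, 271, 267 and 281 in KDAC4 H976Y. The TMP195 libraries were all above the KDAC4 H976Y libraries, the KDAC7 H709A libraries lay on both sides of them, and in KDAC4 H803A only the lowest library, at 279 CPM, lay within their range. The difference of TMP195 from KDAC4 H976Y was 0.30 ± 0.18 (adjusted p = 0.269).

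JUN, the principal AP-1 partner, passed edgeR's test with all libraries in no comparison, and its TMP195 libraries were tightly grouped above those of KDAC4 H976Y. JUN (ENSG00000177606, minus strand of chromosome 1 at 58780788 to 58784327) was at 178, 183 and 171 CPM in TMP195, at 283, 135, 116 and 109 in KDAC7 H709A, at 109.95, 261 and 269 in KDAC4 H803A and at 135, 149.98, 117 and 151 in KDAC4 H976Y. Among libraries with a GC measure below 1, TMP195 at 171 to 183 CPM was above KDAC7 H709A at 109 to 135, KDAC4 H803A at 109.95 and KDAC4 H976Y at 117 to 151. Within that class the TMP195 libraries also had the highest GC measures, at 0.35 to 0.53. The fitted difference of TMP195 from KDAC4 H976Y was 0.36 ± 0.34 (adjusted p = 0.488). With GC and length offsets the TMP195 difference in JUN was -0.02 ± 0.16 from KDAC7 H709A and -0.09 ± 0.17 from KDAC4 H803A. From KDAC4 H976Y it was then 0.11 ± 0.16, and none of these was called.

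JUNB, known as a JUN-family member that can restrain JUN activity, had its lowest mean in TMP195 cells. JUNB (ENSG00000171223, plus strand of chromosome 19 at 12791496 to 12793315) was at 20.002, 20.7 and 20.7 CPM in TMP195, 54.1, 29.8, 21.0 and 20.8 in KDAC7 H709A, 20.6, 49.6 and 55.0 in KDAC4 H803A and 28.4, 26.2, 20.8 and 21.6 in KDAC4 H976Y. TMP195 lay just under all KDAC7 H709A and KDAC4 H976Y libraries. JUNB overlaps HOOK2 on the opposite strand, which held 2346 counts against 4782 for JUNB. TMP195 differed from KDAC4 H803A by -1.03 ± 0.39 (adjusted p = 0.166), from KDAC7 H709A by -0.62 ± 0.36 (adjusted p = 0.341) and from KDAC4 H976Y by -0.25 ± 0.36 (adjusted p = 0.663). With GC and length offsets JUNB was called lower in TMP195 than in KDAC7 H709A (-0.79 ± 0.19, adjusted p = 0.0243) and than in KDAC4 H976Y (-0.65 ± 0.19, adjusted p = 0.0295), and over the 24 alternatives adjusted p ranged from 0.0243 to 0.631 and from 0.0295 to 0.835 for these comparisons. Without KDAC4 H803A replicate 1 it was called lower in TMP195 than in KDAC4 H803A (-1.34 ± 0.33, adjusted p = 0.0193). The KDAC4 H803A libraries then left, replicates 2 and 3, had GC measures of 1.36 and 1.29. Without replicate 3 instead, the difference from KDAC4 H803A was -0.79 ± 0.40 (adjusted p = 0.396). With all libraries and GC and length offsets it was -0.60 ± 0.20 (adjusted p = 0.0927).

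JUND, the JUN family member usually made at a steady level, passed edgeR's test with all libraries in no comparison. JUND (ENSG00000130522, minus strand of chromosome 19 at 18279760 to 18281622) was at 21.97, 24.7 and 26.6 CPM in TMP195, 65.3, 21.3, 15.4 and 22.8 in KDAC7 H709A, 21.5, 34.4 and 37.5 in KDAC4 H803A and 24.2, 24.04, 21.5 and 29.2 in KDAC4 H976Y. All groups overlapped. The fitted differences ranged from -0.35 ± 0.40 for TMP195 against KDAC7 H709A (adjusted p = 0.648) to 0.33 ± 0.40 for KDAC4 H803A against KDAC4 H976Y (adjusted p = 0.569).

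Over the 10 members, 2 were called higher and 0 lower in TMP195 than in KDAC4 H976Y, where 7.96% of the 17780 genes tested were called higher and 8.55% lower (16.5% in all). In KDAC7 H709A 2 members were called higher than in KDAC4 H976Y and 0 lower, with 7.28% and 5.19% of all genes (12.5% in all). In KDAC4 H803A 1 member was called higher and 0 lower, with 9.21% and 5.85% of all genes (15.1% in all). No member was called in TMP195 against KDAC7 H709A, where 1.99% of genes were called higher and 4.31% lower (6.29% in all), or in TMP195 against KDAC4 H803A, with 1.56% and 3.78% (5.34% in all). In KDAC7 H709A against KDAC4 H803A no member and 0% of genes were called by edgeR, with 1118 genes at an unadjusted p under 0.05 and 79 genes called by DESeq2.

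By libraries that do not overlap, TMP195 was above KDAC4 H976Y in 5 members (EGR1, FOS, FOSL1, FOSL2 and JUN) and below it in JUNB, against 27.2% and 26.6% of all genes. KDAC7 H709A was above KDAC4 H976Y in EGR1 and FOSL1 (11.2% of genes) and below it in none (8.95%). KDAC4 H803A was above KDAC4 H976Y in EGR1, FOS and FOSL1 (12.1%) and below it in none (11.0%). TMP195 was below KDAC7 H709A in JUNB alone (11.8%) and above it in none (12.4%). Neither TMP195 against KDAC4 H803A (12.8% of genes higher and 11.4% lower) nor KDAC7 H709A against KDAC4 H803A (1.12% and 0.889%) had a member without overlap. The median log2 difference over the 8 tested members was 0.57, 0.59 and 0.70 for TMP195, KDAC7 H709A and KDAC4 H803A against KDAC4 H976Y, and over all genes tested it was 0.03, 0.09 and 0.09. For TMP195 the members' median was -0.48 against KDAC7 H709A and -0.46 against KDAC4 H803A, where it was -0.07 and -0.11 over all genes. Without KDAC7 H709A replicate 1 TMP195 differed from that group by 0.15 in EGR1, 0.47 in FOS, 1.27 in FOSB and -0.05 in FOSL1. The values were 0.33 in FOSL2, 0.57 in JUN, -0.21 in JUNB and 0.31 in JUND. The direction thus turned in EGR1, FOS, FOSB and JUND. With GC and length offsets TMP195 differed from KDAC4 H803A by -0.76, -1.17, -0.28, -0.06, 0.08, -0.09, -0.60 and 0.05 in the same order. None of these was called.

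**Figure D2:**
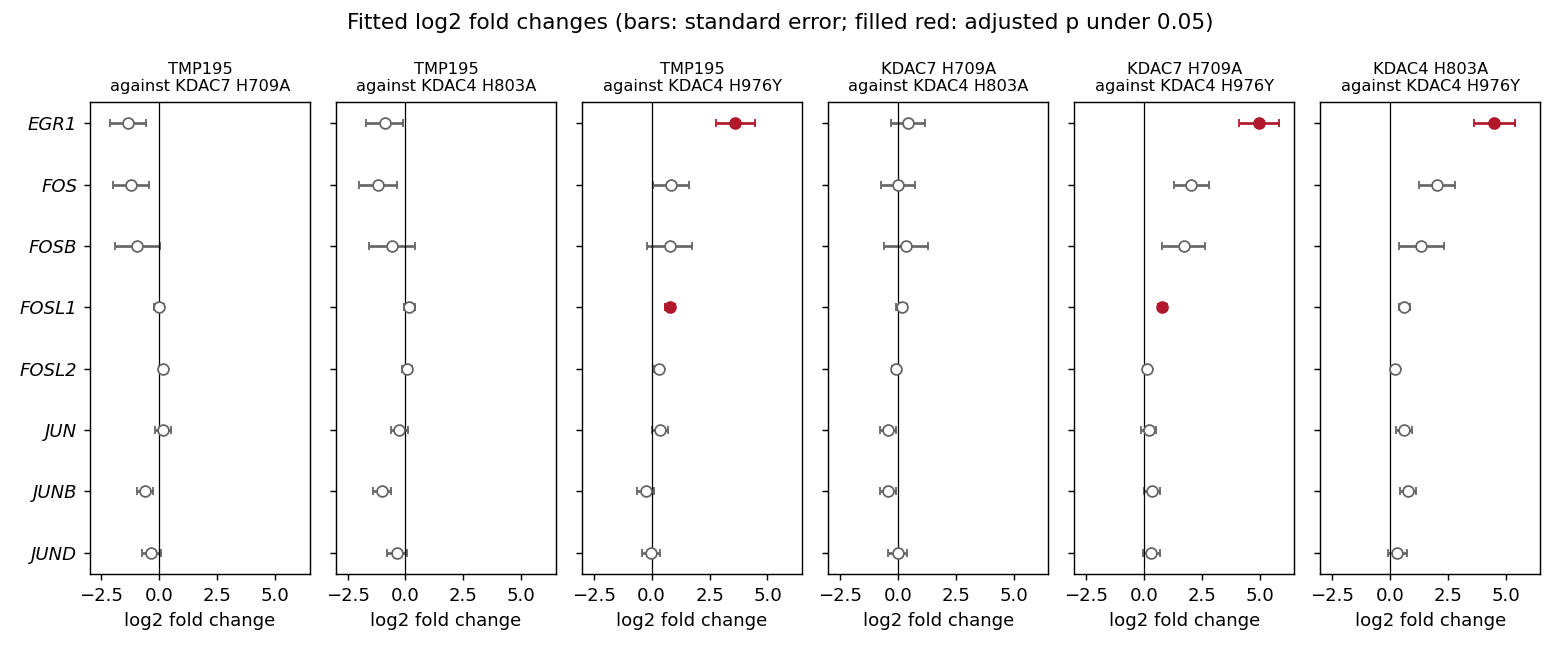
Fitted log2 fold change of the 8 tested members (rows) in each of the 6 comparisons (panels), with its standard error as a bar and filled red points for an adjusted p under 0.05. EGR1 was called in the 3 comparisons against KDAC4 H976Y, at 3.62, 4.96 and 4.51, and FOSL1 in 2 of them, at 0.79 and 0.81.

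The same 3 libraries held the highest values for 4 of the 8 tested members. KDAC7 H709A replicate 1 and KDAC4 H803A replicates 2 and 3, the libraries with a GC measure above 1, were the top 3 for FOS, JUN, JUNB and JUND. For EGR1, FOSB and FOSL2 they supplied 2 of the top 3. For FOSL1 they supplied none, and its top 2 libraries were KDAC7 H709A replicate 4 and KDAC4 H803A replicate 1, which have the lowest GC measures, at -1.11 and -1.08. With GC and length offsets the difference of KDAC4 H803A from KDAC4 H976Y was -0.05 ± 0.19 in JUNB, 0.20 ± 0.16 in JUN and -0.68 ± 0.40 in JUND, where it was 0.78, 0.62 and 0.33 without them, and none of these was called. In FOS it was 1.79 ± 0.68 (adjusted p = 0.0757) with the offsets and 2.04 without. The EGR1 differences from KDAC4 H976Y with the offsets were 3.38 ± 0.71 in TMP195, 4.70 ± 0.70 in KDAC7 H709A and 4.13 ± 0.71 in KDAC4 H803A, all called. With replicates 1 and 4 of KDAC7 H709A and replicate 1 of KDAC4 H803A left out, 7 members (EGR1, FOS, FOSB, FOSL2, JUN, JUNB and JUND) were called lower in KDAC7 H709A than in KDAC4 H803A, beside 11044 of 18359 genes in either direction, where none had been called with all libraries. The EGR1 difference was then -1.30 ± 0.42 (adjusted p = 0.0157) and the direction had turned from 0.45. The 2 KDAC7 H709A libraries that remained had GC measures of -0.48 and -0.95 and the 2 KDAC4 H803A libraries 1.36 and 1.29, so the group and the measure cannot be told apart there. In the same setting TMP195 differed from KDAC7 H709A by 0.75 ± 0.24 in FOS (adjusted p = 0.0215) and by 1.55 ± 0.42 in FOSB (adjusted p = 0.00947), both turned in direction.

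FOSL1 and FOSL2 made up almost all of the FOS family level in every group. Levels between genes were compared per kilobase of annotated exon. FOSL1 supplied 75.1 ± 1.379% of the FOS family level in TMP195, 75.9 ± 7.61% in KDAC7 H709A, 71.3 ± 9.24% in KDAC4 H803A and 68.6 ± 2.31% in KDAC4 H976Y (SD, n = 3, 4, 3 and 4). FOSL2 supplied 23.5 ± 1.16%, 21.1 ± 3.71%, 25.1 ± 7.15% and 30.1 ± 2.12% in the same order. FOS and FOSB together stayed under 10% in every library. The FOS family total was 199 ± 7.75 CPM per kb in TMP195, 199.7 ± 37.7 in KDAC7 H709A, 184 ± 39.8 in KDAC4 H803A and 126 ± 7.95 in KDAC4 H976Y. Ranges of the first 3 groups, with the lowest library at 153, lay above the KDAC4 H976Y range of 120 to 138.

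TMP195 cells had the highest JUN share and the lowest JUNB share of the JUN family. JUN supplied 67.3 ± 1.77% of the JUN family level in TMP195, 58.0 ± 3.11% in KDAC7 H709A, 59.8 ± 2.07% in KDAC4 H803A and 59.5 ± 1.73% in KDAC4 H976Y. Its lowest TMP195 library, at 65.4%, was above the highest of the others, at 62.4%. JUNB supplied 15.1 ± 0.225% in TMP195, against 22.1 ± 1.96%, 22.6 ± 1.51% and 20.3 ± 2.66% in the same other groups, and its highest TMP195 library, at 15.3%, was below the lowest of the others, at 16.9%. These shares were chosen after their values were seen and were not tested. The JUN family total averaged 74.5 ± 1.68 CPM per kb in TMP195, 79.5 ± 43.9 in KDAC7 H709A, 99.9 ± 39.9 in KDAC4 H803A and 65.7 ± 6.58 in KDAC4 H976Y.

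**Figure D3:**
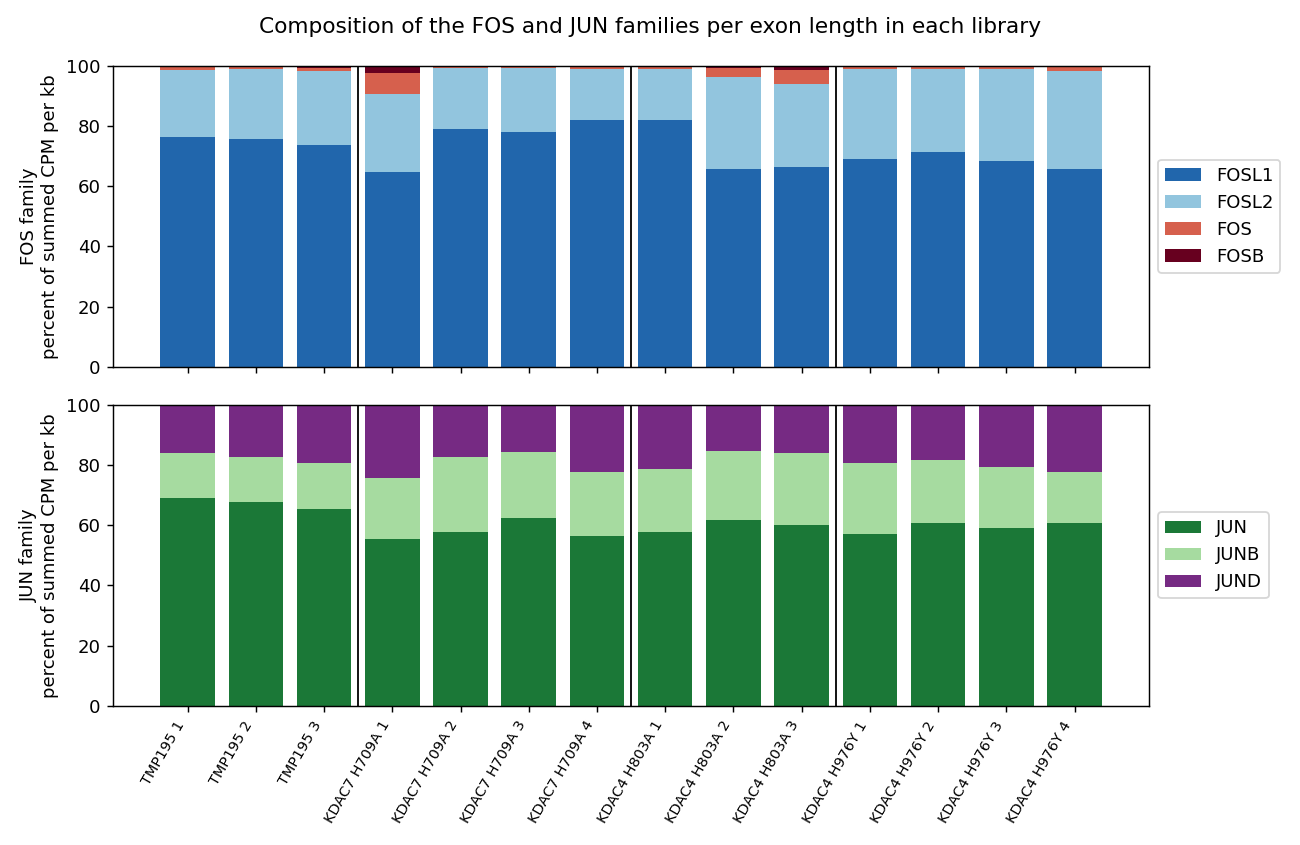
Percent of the summed CPM per kilobase of each family supplied by its members (stacked colours), by library, with groups in the order TMP195, KDAC7 H709A, KDAC4 H803A and KDAC4 H976Y separated by black lines. FOSL1 fills 64.8% to 82.1% of the FOS family bars and JUN fills 55.3% to 68.8% of the JUN family bars, highest in the TMP195 libraries.

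Per length, FOSL1 led in all groups, at 149 CPM per kb in TMP195, 151 in KDAC7 H709A, 133 in KDAC4 H803A and 86.6 in KDAC4 H976Y. JUN and FOSL2 came next in all 4 groups, JUN at 50.2, 45.4, 60.2 and 39.1 CPM per kb and FOSL2 at 46.6, 41.9, 44.3 and 37.9. JUNB and JUND lay between 11.2 and 22.9 CPM per kb. The place of EGR1 in this order differed between groups. At 5.13, 13.02 and 9.55 CPM per kb in TMP195, KDAC7 H709A and KDAC4 H803A it stood above FOS, which was at 2.05, 4.75 and 4.68, and at 0.410 CPM per kb in KDAC4 H976Y it stood below FOS at 1.14.

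Of the wider pathway, 3 genes in the list of 15 EGR co-regulators, serum response factor and ternary complex factors were called higher in each of TMP195, KDAC7 H709A and KDAC4 H803A than in KDAC4 H976Y, and none lower. This was 3 of 14 tested genes, where 7.96%, 7.28% and 9.21% of all genes were called higher in these comparisons. SRF, which binds the CArG box, ETS1 and ETV4 were those 3 in each comparison. SRF averaged 74.9 ± 6.14 CPM in TMP195, 72.7 ± 7.52 in KDAC7 H709A, 75.4 ± 12.996 in KDAC4 H803A and 40.6 ± 6.82 in KDAC4 H976Y (adjusted p = 0.00556, 0.00590 and 0.00647 for the first 3 against KDAC4 H976Y). Their log2 differences for SRF were 0.88, 0.84 and 0.89. The median over the 14 tested genes was 0.07, 0.42 and 0.12 for TMP195, KDAC7 H709A and KDAC4 H803A.

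Of 38 other immediate early genes, 36 were tested and 9 were called higher and 2 lower in TMP195 than in KDAC4 H976Y, with a median of 0.45. In KDAC7 H709A 11 were called higher and 0 lower, with a median of 0.69, and in KDAC4 H803A 12 higher and 1 lower, with a median of 0.74. Of all genes, 7.96% were called higher and 8.55% lower in TMP195, 7.28% and 5.19% in KDAC7 H709A, and 9.21% and 5.85% in KDAC4 H803A. DUSP5, a nuclear phosphatase of ERK, averaged 110.4 ± 3.23 CPM in TMP195, 206 ± 20.4 in KDAC7 H709A, 176 ± 48.0 in KDAC4 H803A and 41.4 ± 6.86 in KDAC4 H976Y. Its log2 difference from KDAC4 H976Y was 2.32 ± 0.19 in KDAC7 H709A (adjusted p = 1.47e-05) and 2.08 ± 0.20 in KDAC4 H803A (adjusted p = 4.87e-05). CYR61, a secreted matricellular protein, averaged 747 ± 22.5 CPM in TMP195, 839.9 ± 384 in KDAC7 H709A, 739.7 ± 85.6 in KDAC4 H803A and 136 ± 17.9 in KDAC4 H976Y. It was higher in each of the first 3 than in KDAC4 H976Y (2.45 ± 0.28, 2.62 ± 0.27 and 2.44 ± 0.28, adjusted p = 0.000108, 8.80e-05 and 0.000206). ZFP36L1, which promotes decay of mRNAs with AU-rich elements, averaged 114 ± 4.87 CPM in TMP195, 296 ± 11.9 in KDAC7 H709A, 291 ± 20.8 in KDAC4 H803A and 108 ± 5.46 in KDAC4 H976Y (log2 differences of TMP195 from KDAC7 H709A and KDAC4 H803A -1.37 ± 0.14 and -1.35 ± 0.14, adjusted p = 4.70e-05 and 8.97e-05). TMP195 was also lower than KDAC7 H709A in BTG2, TRIB1 and DUSP5, and lower than KDAC4 H803A in BTG2.

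Of 27 other AP-1 dimer partners, 23 were tested and 6 were higher and 1 lower in TMP195 than in KDAC4 H976Y, 5 and 0 in KDAC7 H709A and 4 and 0 in KDAC4 H803A, where 16.5%, 12.5% and 15.1% of all genes were called in either direction. ATF6B and MAFF were called in all 3. MAFF, a small MAF protein, averaged 45.0 ± 3.57 CPM in TMP195, 33.3 ± 17.0 in KDAC7 H709A, 44.1 ± 20.7 in KDAC4 H803A and 13.1 ± 2.34 in KDAC4 H976Y. NFE2L1, a regulator of proteasome genes, was the single one called in TMP195 against KDAC7 H709A (0.90 ± 0.16, adjusted p = 0.00359) and against KDAC4 H803A (0.95 ± 0.17, adjusted p = 0.00459). Of 31 RAS, MAP kinase and RSK genes, 30 were tested and 1 was higher and 1 lower in TMP195 than in KDAC4 H976Y, 0 in KDAC7 H709A and 2 higher in KDAC4 H803A, against the same shares of all genes.

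The target lists held calls in both directions. Of 25 AP-1 targets, a list that includes FOSL1 itself, IL8 was not found by that name, 21 were tested, and 6 were higher and 0 lower in TMP195 than in KDAC4 H976Y, 3 higher and 2 lower in KDAC7 H709A, and 2 higher and 3 lower in KDAC4 H803A. The shares of all genes called in these comparisons were 16.5%, 12.5% and 15.1%. Of 19 EGR1 targets, 17 were tested, and 3 were higher and 2 lower in TMP195 than in KDAC4 H976Y, 2 and 2 in KDAC7 H709A, and 3 and 2 in KDAC4 H803A. TNFAIP3, an inhibitor of NF-kB signalling, averaged 21.9 ± 1.40 CPM in TMP195, 23.8 ± 10.8 in KDAC7 H709A, 21.9 ± 2.97 in KDAC4 H803A and 6.39 ± 2.10 in KDAC4 H976Y, with adjusted p of 0.00286, 0.00173 and 0.00375. ID3, a dominant-negative helix-loop-helix factor, was lower in KDAC7 H709A (-1.94 ± 0.31, adjusted p = 0.00154) and KDAC4 H803A (-1.62 ± 0.34, adjusted p = 0.00829) than in KDAC4 H976Y, and higher in TMP195, at 52.6 ± 6.57 CPM, than in KDAC7 H709A at 9.42 ± 4.66 (adjusted p = 0.000431) and KDAC4 H803A at 11.8 ± 4.29 (adjusted p = 0.00285). FN1, fibronectin, which also counts among the mesenchymal markers, was lower in KDAC7 H709A and KDAC4 H803A than in KDAC4 H976Y as well, with log2 differences of -1.72 ± 0.43 (adjusted p = 0.0198) and -2.18 ± 0.49 (adjusted p = 0.0111). Of the 10 tested mesenchymal markers, 2 were called lower in KDAC7 H709A and 4 in KDAC4 H803A than in KDAC4 H976Y. None was called higher in either, and 5.19% and 5.85% of all genes were called lower. The part of these markers in the values above was not tested.

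The 3 members with the widest range over libraries were EGR1, FOSB and FOS, at 6.72, 4.18 and 3.86 on the log2 CPM scale. The tested genes with the nearest centred profiles over the 14 libraries were ALS2CL (root mean square difference 0.56), RP11-680F8.1 (0.71) and RP11-426C22.4 (0.72) for EGR1, which are a guanine nucleotide exchange factor-like gene, an antisense RNA and a long noncoding RNA by the annotation. They were ZNF783 (0.34), KIAA0895L (0.41) and HSPB9 (0.43) for FOSB, and ARHGAP27 (0.33), C19orf81 (0.33) and the mRNA decay factor ZFP36 (0.34) for FOS. All libraries share the scaling and the GC measure described above, and these distances are a description with no test.

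**Figure D4:**
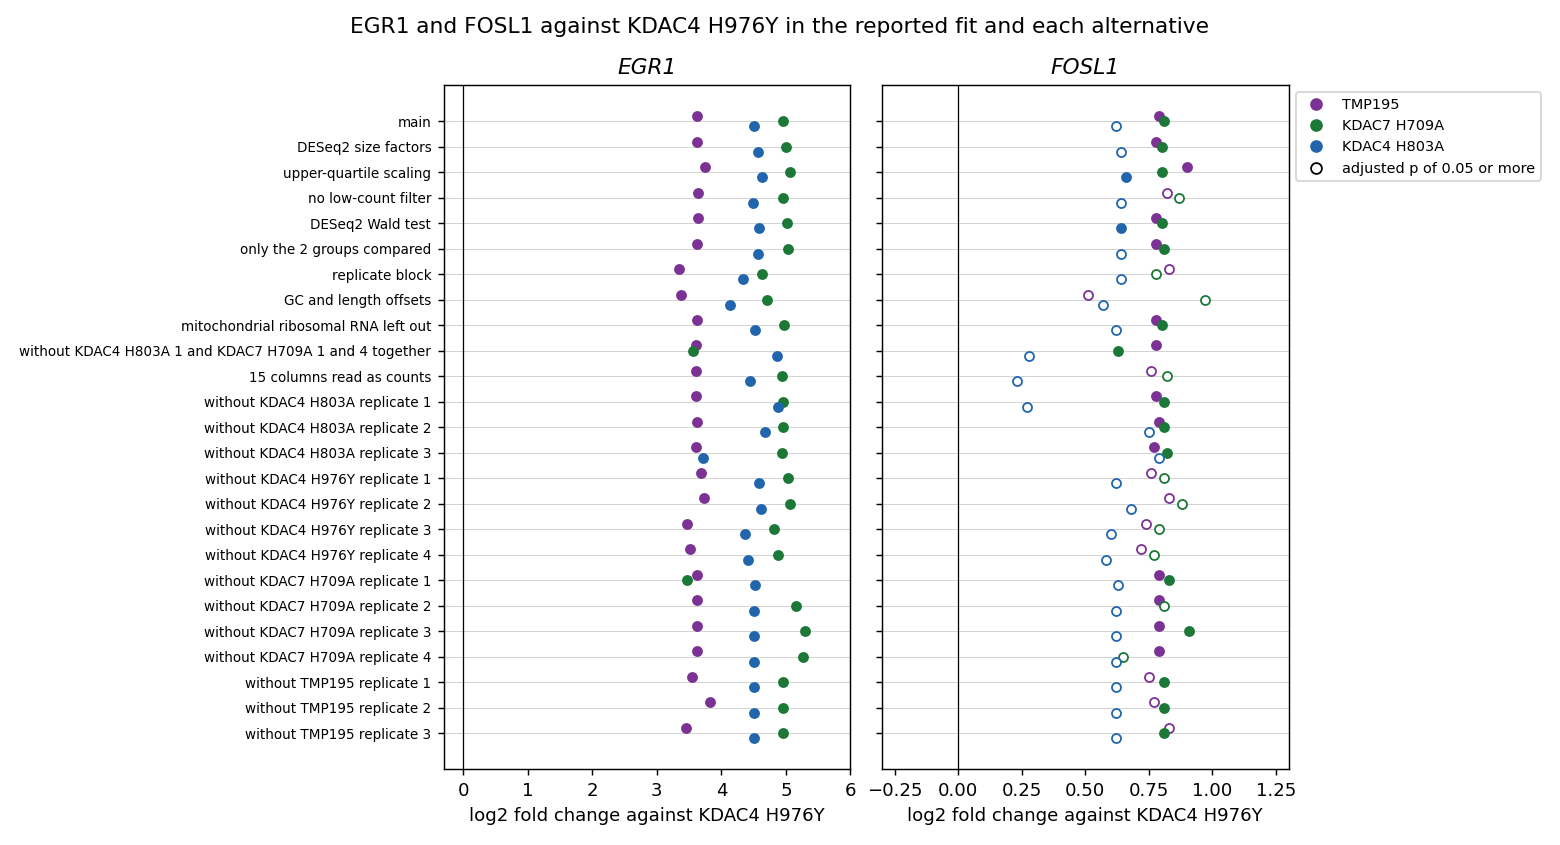
Log2 fold change of EGR1 (left) and FOSL1 (right) against KDAC4 H976Y for TMP195, KDAC7 H709A and KDAC4 H803A (colours) in the reported analysis and each alternative (rows), with open points where the adjusted p was 0.05 or more. EGR1 is filled throughout, between 3.34 and 5.29, while FOSL1 alternates between filled and open points.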

How the data were processed

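Per the labels' protocols, total RNA from frozen cell pellets was depleted of ribosomal RNA and sequenced as paired reads. The authors deposited expected counts (estimated counts that need not be whole) per gene, one column per sample, made with Trimmomatic 0.39, Bowtie2 2.4.5 and RSEM 1.3.3 on GRCh38 per the submitters' processing notes, which also name DESeq2 1.38.2. The deposited column of the 4th KDAC4 H803A sample was not used as counts: in 7383 of 7628 genes with 1 transcript over 1000 bases (96.8%) it equals the GENCODE v29 transcript length less 248.86 bases, within 0.02, and at most 0.236% of genes do so in another column. The design had named this rule, and 0 columns were left unmapped. Of 60675 gene IDs, 57055 matched GENCODE v29.

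Counts were rounded and genes were kept by edgeR's filterByExpr, set to a minimum count of 10 and a total of 15, which left 17780. That filter turns the minimum count into a CPM that several libraries must reach. The main test was edgeR 4.0.16's quasi-likelihood test (limma 3.58.1, R 4.3.3) on libraries scaled by the trimmed mean of M values, with all 4 groups in 1 fit and Benjamini-Hochberg adjustment over all genes. The 24 alternative settings include the Wald test of DESeq2 1.42.0. The fit was also run on simulated data, and the outcome is not reported here. The common dispersion was 0.179. The 10 members and the other gene lists were chosen with earlier results of these data known. For each list, at most 4 called genes with the lowest adjusted p were eligible to be named, an eligible gene is not reported here, and nearest profiles used the root mean square difference of centred log2 CPM with a prior count of 2. Replicate numbers did not pair the samples. Depth limits low members: 1 CPM is 4.86 to 23.9 counts. Exon lengths and chromosome positions come from GENCODE v29.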

Additional observations from a re-analysis of the deposited data

Results flagged for a closer look

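Of 19 sets of 4 values, each of 1 member in 1 group, 6 were flagged for a library far from the others. Chance flags about 1 in 20 independent sets, but these sets share libraries, so that rate does not apply to their number. In 5 of the 6 flagged sets the library was KDAC7 H709A replicate 1, so these flags are not independent of each other. Its EGR1 level was 119 CPM, against 9.08 to 22.4 CPM in the other 3 KDAC7 H709A libraries. Its FOS level was 47.2 CPM, against 3.32 to 6.41 CPM. Its FOSB level was 31.1 CPM, against 1.56 to 2.64 CPM. Its JUN level was 283 CPM, against 109 to 135 CPM, and its JUND level was 65.3 CPM, against 15.4 to 22.8 CPM. The 6th was EGR3 in KDAC7 H709A replicate 2, at 0.174 CPM from 2 counts. The other libraries of the group had 0, and any count above 0 would then be flagged.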

How the results depend on the processing

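Of 1152 member values under 24 alternatives, 1088 kept their side of the threshold, 21 were no longer called, 37 became called and 6 turned their direction. The 1088 include 51 values that changed sign and were called neither in the reported fit nor in the alternative. Without KDAC4 H803A 1 and KDAC7 H709A 1 and 4 together, the turned values were TMP195 against KDAC7 H709A in FOS (0.75) and FOSB (1.55), and KDAC7 H709A against KDAC4 H803A in EGR1 (-1.30), FOS (-2.30), FOSB (-2.58) and JUND (-0.96). The members called then numbered 4 for TMP195 against KDAC7 H709A, 7 for TMP195 against KDAC4 H803A, 5 for TMP195 against KDAC4 H976Y, 7 for KDAC7 H709A against KDAC4 H803A, and 7 for KDAC4 H803A against KDAC4 H976Y. Of the 18359 genes tested in this setting, 8392, 8792, 9895, 11044 and 11848 were called in these comparisons, in the same order. The cause of the changes among the members was not tested.

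Members called against KDAC4 H976Y numbered 1 for TMP195 and 1 for KDAC7 H709A with no low-count filter, with a replicate block and with 15 columns read as counts, and 1 for KDAC7 H709A with GC and length offsets. They numbered 5 for TMP195 with only the 2 groups compared, beside 9576 of 16298 genes called. For KDAC4 H803A they numbered 2 with upper-quartile scaling or with only the 2 groups, beside 2869 of 17780 and 1634 of 15256 genes. The DESeq2 Wald test called 3 (EGR1, FOS and FOSL1) for KDAC4 H803A, beside 4377 of 17780 genes. It also called these 3 for KDAC7 H709A, beside 3394 genes, where FOS was the member gained. GC and length offsets called 1 member, JUNB, lower in TMP195 than in KDAC7 H709A, beside 1194 of 17780 genes. For TMP195 against KDAC4 H976Y they called EGR1 higher and JUNB lower (-0.65, adjusted p = 0.0295), with FOSL1 no longer called. There 3673 of 17780 genes were called. Leaving out 1 library gave 0 to 1 members for TMP195 against KDAC4 H803A, 1 to 2 for TMP195 and 1 to 3 for KDAC7 H709A against KDAC4 H976Y, and 1 to 4 for KDAC4 H803A against KDAC4 H976Y. The 4 came without KDAC4 H803A replicate 1, where 8431 of 18610 genes were called. Genes called in these fits ranged from 436 to 2695, 1307 to 5079, 1215 to 3440 and 1129 to 8431, in the same order of comparisons. With lengths from the left-out column, FOSL1 supplied 77.3% of the FOS family in TMP195 and 71.9% in KDAC4 H976Y. Leaving out 1 library gave FOSL1 shares of 74.5% to 75.9% in TMP195, 73.8% to 79.6% in KDAC7 H709A, 66.0% to 74.1% in KDAC4 H803A and 67.7% to 69.5% in KDAC4 H976Y, an alternative chosen after seeing the data.

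Replicate numbers gave same-number correlations of -0.69 to 0.36 (median -0.10), with 5 of 19 pairs over 0.1, so the replicate block did not rest on paired samples. Under it the FOSL1 values were 0.83 (adjusted p = 0.0561) for TMP195 and 0.78 (adjusted p = 0.0569) for KDAC7 H709A against KDAC4 H976Y. Genes called over all alternatives ranged from 288 to 8392 for TMP195 against KDAC7 H709A (1119 reported), 366 to 8792 for TMP195 against KDAC4 H803A (949), 700 to 9895 for TMP195 against KDAC4 H976Y (2936), 0 to 11044 for KDAC7 H709A against KDAC4 H803A (0), 430 to 5829 for KDAC7 H709A against KDAC4 H976Y (2218) and 1129 to 11848 for KDAC4 H803A against KDAC4 H976Y (2679).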
